A study of Drosophila melanogaster with 12 samples.

Results

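The genes described here encode parts of the thick filament, titin-like proteins and parts of the Z-disc of muscle. They are Mlc1, Mlc2, Mhc, Prm, bt, sls, Zasp52, Mlp60A and Mlp84B of Drosophila melanogaster. They were taken by symbol: every probe set of the array that the platform annotation assigns to 1 of these genes alone was kept. That gave 13 probe sets for 8 of the 9 genes, out of 18769 probe sets tested. Prm had 2 probe sets, sls and Mlp60A had 3 each, and the other 5 genes had 1 each. No probe set was named for Mhc in the annotation used here, so the muscle myosin heavy chain was not analysed.

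The arrays held total RNA from mesodermal cells of embryos at late stage 11 to early stage 12, sorted for GFP. All 4 groups carried the driver twi-gal4 and UAS-GFP, so that GFP marked cells expressing Twist. The Slou group also carried UAS-S59, for expression of Slou (slouch, also called S59). The group labelled Msh also carried UAS-msh, for expression of msh (muscle segment homeobox, listed as Dr). There were 2 wild-type groups with only the driver and GFP, here wild type set 1 and wild type set 2. Each group had 3 arrays, called A, B and C. Expression driven this way covers the whole Twist domain, not single muscle founder cells. Nothing in the labels ties the 3 arrays of a group to different collections of embryos. The p-values therefore reflect array-to-array spread, part or all of which may be technical.

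In a sarcomere, the heavy chain of myosin and its light chains form the motor of the thick filament, and paramyosin packs its core. Some titin-like proteins run from the Z-disc to the thick filament and give the resting muscle its stiffness. The Z-disc anchors actin filaments, and PDZ and LIM domain proteins such as Zasp and the muscle LIM proteins hold it together. In the fly embryo these genes are known to be switched on as myoblasts fuse and differentiate, after muscle identity factors such as Slou and Msh have appeared in founder cells.

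The deposited values are on a log2 scale and fell into 2 parts with different scaling. Slou and wild type set 1 had array medians of 2.59 to 2.72, and the arrays labelled Msh and wild type set 2 had medians of 3.85 to 3.91. Levels were therefore compared within each part, and across parts only as ranks within an array or after quantile normalization of all 12 arrays. The pairing of each gain of function with a wild-type set was inferred from this shared scaling and is not given in the labels. The spread grew towards background. In wild type set 1 the SD of 3 arrays had a median of 1.22 where the mean log2 value was under 2, and of 0.0479 where it was over 8. The probe set of slou averaged 11.07 ± 0.05 in Slou and 5.58 ± 0.12 in wild type set 1 (SD, n = 3 each), a rise of 5.48 on the log2 scale (limma adjusted p = 0.00152). The probe set of Dr averaged 9.36 ± 0.02 in the arrays labelled Msh and 9.03 ± 0.23 in wild type set 2 (SD, n = 3 each), and this difference of 0.32 did not pass (limma adjusted p = 0.254). The overexpression in those arrays thus rests on their labels.

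The myosin light chains, the motor's small subunits, were higher in Slou than in wild type set 1 and lower in the arrays labelled Msh than in wild type set 2. Mlc2, the regulatory light chain, had log2 values of 5.77, 5.81 and 5.78 in Slou, against 4.31, 4.61 and 4.46 in wild type set 1. All 3 Slou arrays lay above all 3 wild-type arrays. The rise was 1.33 (SE 0.12, limma adjusted p = 0.0152), or 2.51-fold. Mlc2 in the arrays labelled Msh had values of 7.04, 7.21 and 7.24, against 8.61, 8.60 and 8.65 in wild type set 2. The groups did not overlap, and Mlc2 fell by 1.45 (SE 0.09, limma adjusted p = 0.00628), or 2.74-fold.

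Mlc1, the essential (alkali) light chain, followed the same course. Its values were 7.13, 6.88 and 6.97 in Slou, against 6.03, 6.01 and 5.92 in wild type set 1. Slou was again wholly above, and the rise was 1.01 (SE 0.11, limma adjusted p = 0.0263). Its values were 7.45, 7.21 and 7.52 in the arrays labelled Msh, against 9.09, 8.90 and 9.03 in wild type set 2. The fall of 1.61 (SE 0.12, limma adjusted p = 0.00800) was 3.05-fold, with no overlap. The light chain Mlc-c, which serves non-muscle myosins, was the 1 gene measured of a list of 5 non-muscle myosin genes. Its changes of 0.38 in Slou and 0.14 in the arrays labelled Msh did not pass (limma adjusted p = 0.172 and 0.291).

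**Figure D1:**
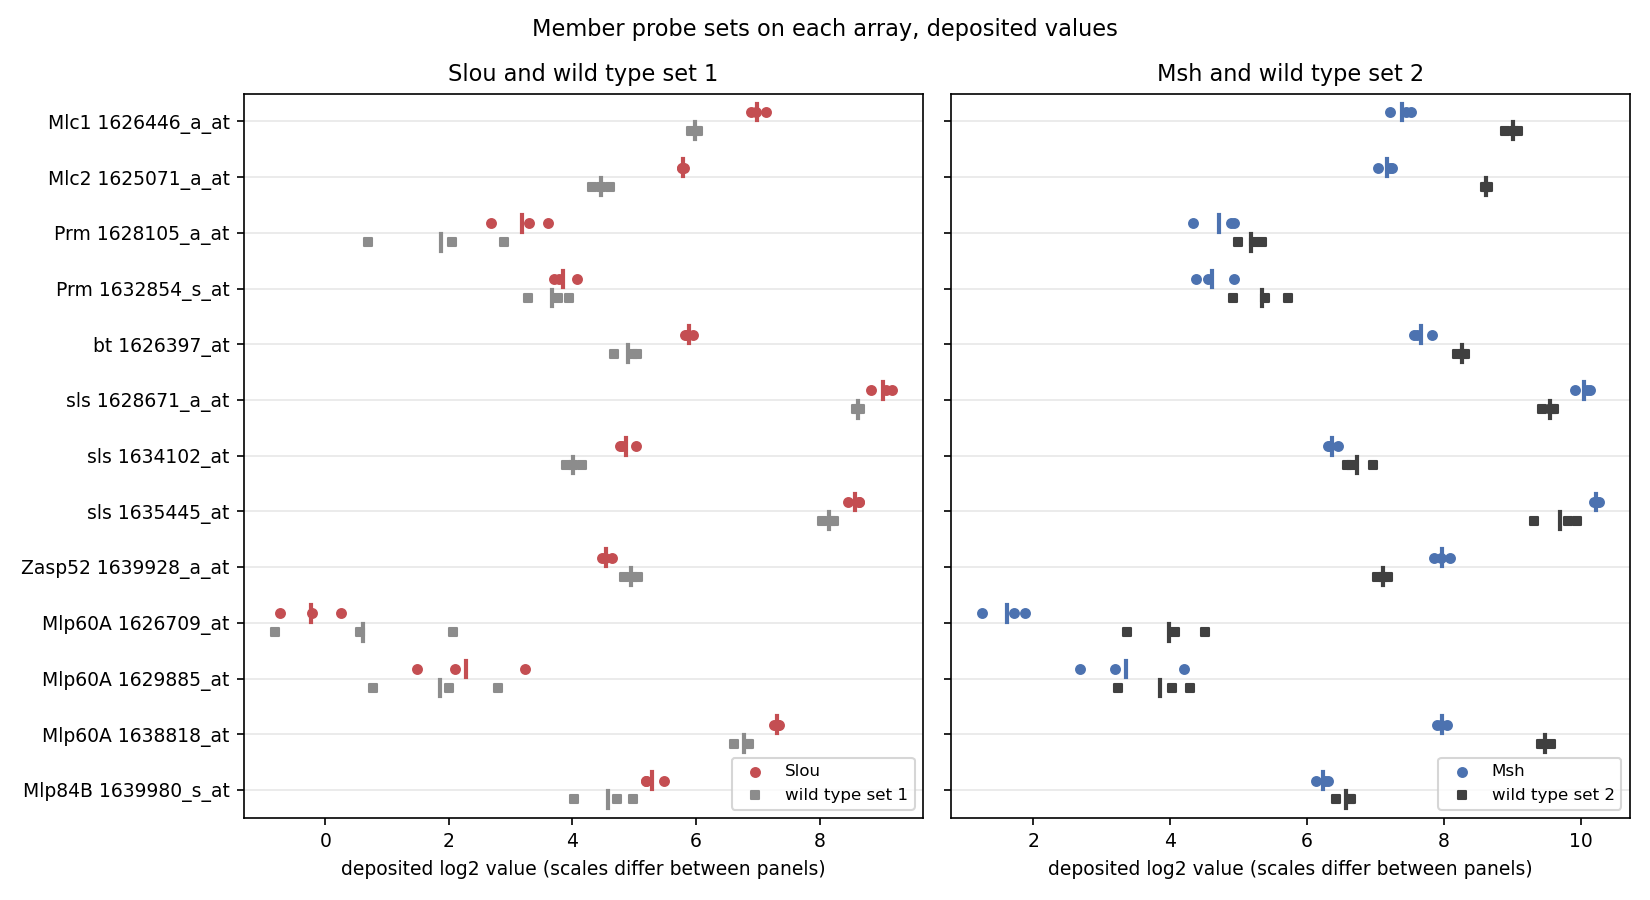
Deposited log2 values (x axis) of the 13 probe sets on every array, with Slou and wild type set 1 at left and the arrays labelled Msh and wild type set 2 at right. Points are single arrays and short vertical lines are group means. Mlc2 averaged 5.79 in Slou and 4.46 in wild type set 1, and 7.17 in the arrays labelled Msh and 8.62 in wild type set 2. The scales of the panels differ and cannot be read across.

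Paramyosin, the rod protein in the core of invertebrate thick filaments, showed no change that passed. The Prm probe set 1628105_a_at had values of 2.68, 3.60 and 3.29 in Slou, against 2.05, 2.89 and 0.69 in wild type set 1. These groups overlapped, and the 3 wild-type arrays had an SD of 1.11, so a change of 1.31 (SE 0.63) had an adjusted p of 0.431 by limma. The same probe set changed by -0.46 (SE 0.21, limma adjusted p = 0.277) in the arrays labelled Msh. The other, 1632854_s_at, had changes of 0.19 (SE 0.23) in Slou and -0.72 (SE 0.27) in the arrays labelled Msh, with limma adjusted p = 0.779 and 0.200. In wild type set 1 these probe sets averaged 1.88 and 3.66, low on the scale of those arrays.

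Of the titin-like genes, bt moved as the light chains did, while sls depended on the probe set. bt encodes projectin, an elastic protein with a kinase domain. It had values of 5.83, 5.95 and 5.86 in Slou, against 4.66, 4.98 and 5.05 in wild type set 1, wholly above. The rise was 0.98 (SE 0.14, limma adjusted p = 0.0460). bt in the arrays labelled Msh had values of 7.60, 7.56 and 7.83, against 8.28, 8.19 and 8.31 in wild type set 2. It fell by 0.60 (SE 0.11, limma adjusted p = 0.0442), again with no overlap. Both p-values lay close to the threshold of 0.05.

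sls encodes Sallimus, which includes the kettin isoforms and spans the I-band from the Z-disc. None of its 3 probe sets passed in either comparison, although the arrays of the 2 groups did not overlap for any of them. The brightest, 1628671_a_at, had values of 9.07, 8.83 and 9.18 in Slou, against 8.66, 8.63 and 8.59 in wild type set 1. It had values of 10.09, 10.13 and 9.92 in the arrays labelled Msh, against 9.58, 9.61 and 9.44 in wild type set 2. This probe set thus had positive changes in both comparisons. They were 0.40 (SE 0.13) in Slou and 0.50 (SE 0.10) in the arrays labelled Msh, with limma adjusted p = 0.252 and 0.0554. The probe set 1635445_at had the same 2 signs, with changes of 0.42 (SE 0.12) and 0.54 (SE 0.19). The dimmer 1634102_at instead had 4.87 ± 0.14 in Slou and 4.02 ± 0.13 in wild type set 1 (SD, n = 3 each), a change of 0.85 (limma adjusted p = 0.0590). This probe set in the arrays labelled Msh had 6.37 ± 0.08, against 6.73 ± 0.21 in wild type set 2 (SD, n = 3 each), a change of -0.37 (limma adjusted p = 0.199). Of these 2 comparisons, the 3 probe sets of 1 gene thus disagreed in sign in that of the arrays labelled Msh. Those probe sets also disagreed in sign between the 2 wild-type sets, as given below. Which transcripts each of them detects was not tested.

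Zasp52, a PDZ and LIM domain protein that binds alpha-actinin at the Z-disc, ran opposite to the light chains. It had values of 4.48, 4.53 and 4.64 in Slou, against 5.06, 4.97 and 4.83 in wild type set 1. All Slou arrays lay below all wild-type arrays, but the change of -0.41 (SE 0.11) did not pass (limma adjusted p = 0.201). It had values in the arrays labelled Msh of 7.85, 7.96 and 8.09, against 7.03, 7.19 and 7.12 in wild type set 2. This rise of 0.86 (SE 0.10, limma adjusted p = 0.0191), or 1.81-fold, was the only one among the 13 probe sets that passed in the arrays labelled Msh.

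The muscle LIM proteins are small scaffold proteins of the Z-disc and of muscle attachment sites. Mlp60A, with a single LIM domain in its short form, was read by 3 probe sets of very different brightness. The brightest, 1638818_at, had values of 8.05, 7.90 and 7.96 in the arrays labelled Msh, against 9.42, 9.57 and 9.44 in wild type set 2. It fell by 1.50 (SE 0.09, limma adjusted p = 0.00618), or 2.84-fold. In Slou it had values of 7.26, 7.34 and 7.33, against 6.85, 6.62 and 6.86 in wild type set 1. Slou was wholly above, yet the change of 0.53 (SE 0.12) did not pass (limma adjusted p = 0.119). The probe set 1626709_at also fell in the arrays labelled Msh, with a change of -2.37 (SE 0.35, limma adjusted p = 0.0307). It averaged 1.62 there and 3.98 in wild type set 2, so the lower group lay where the spread between arrays is widest. In Slou and wild type set 1 it averaged -0.23 and 0.61, both near background. The third, 1629885_at, overlapped between groups in both comparisons.

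Mlp84B has several LIM domains in tandem. It had values of 5.48, 5.19 and 5.19 in Slou, against 4.98, 4.02 and 4.71 in wild type set 1. The groups did not overlap, and the change of 0.71 (SE 0.29) did not pass (limma adjusted p = 0.350). Its values in the arrays labelled Msh were 6.26, 6.14 and 6.30, against 6.42, 6.65 and 6.63 in wild type set 2. This change of -0.33 (SE 0.10) did not pass either (limma adjusted p = 0.144).

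In all, 3 of 13 probe sets passed as higher in Slou and 0 as lower, where 1.24% and 1.08% of all probe sets passed in those directions. At an unadjusted limma p under 0.05, 8 of the 13 passed in Slou, where 15.1% of all did, and 11 of the 13 in the arrays labelled Msh, where 22.8% of all did. In the arrays labelled Msh, 1 of 13 passed as higher and 5 as lower, where 2.86% and 3.95% of all did, and the 5 lower ones belonged to 4 genes. The median change was 0.53 in Slou, against -0.01 over all probe sets, and -0.50 in the arrays labelled Msh, against 0.02 over all. The groups did not overlap for 8 higher and 1 lower probe sets in Slou, where 12.5% and 12.8% of all did so. They did not overlap for 3 higher and 8 lower in the arrays labelled Msh, where 17.5% and 15.3% of all did so. The shares in this paragraph include dim probe sets and are not matched to the 13. A filter kept only probe sets with a mean above log2 4. After it, 8 of 9 members passed in either direction in Slou, as did 2135 of all 6737 left. In the arrays labelled Msh 9 of 11 members did, as did 3586 of all 8792 left.

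All 3 calls in Slou were lost when any 1 of the 6 arrays was left out, with limma adjusted p of 0.0548 to 0.0815 for Mlc2, 0.0862 to 0.109 for Mlc1 and 0.106 to 0.163 for bt. Their changes barely moved, at 1.25 to 1.40 for Mlc2, 0.94 to 1.06 for Mlc1 and 0.87 to 1.06 for bt. In the arrays labelled Msh, Mlc1, Mlc2 and Mlp60A 1638818_at passed without any 1 array of wild type set 2, and did not pass without any 1 array labelled Msh. Their highest limma adjusted p was 0.0582, 0.0552 and 0.0552. bt and Zasp52 passed in none of these 6 fits, and Mlp60A 1626709_at passed in 1 of them.

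**Figure D2:**
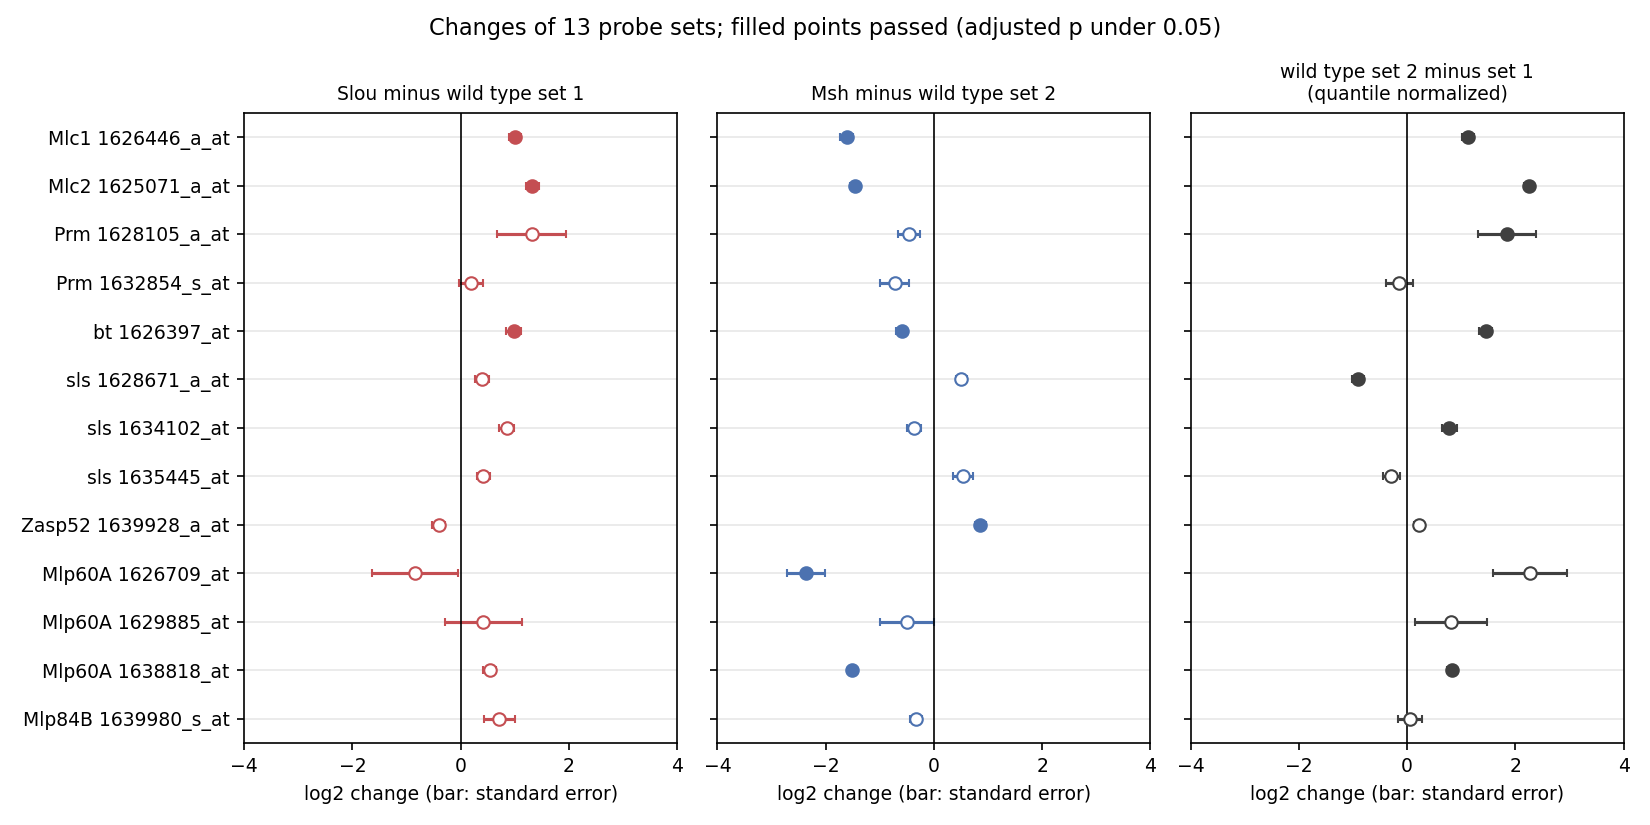
Log2 change of each of the 13 probe sets (x axis, points) with its moderated standard error (bars) in 3 comparisons; filled points passed at an adjusted p under 0.05. Mlc1, Mlc2 and bt sit right of 0 at left and left of 0 in the middle, and Zasp52 lies on the opposite sides, its Slou point being open. In the right panel Mlc2 sits at 2.25.

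The 2 effects were also compared directly, as the change in Slou minus the change in the arrays labelled Msh, in 1 fit of 12 arrays with 4 group means. This difference passed as positive for 5 of the 13 probe sets and as negative for 1, where 4.76% and 4.46% of all passed. It was positive for Mlc2 at 2.78 (SE 0.13, limma adjusted p = 1.30e-05), Mlc1 at 2.62, Mlp60A 1638818_at at 2.04, bt at 1.58 and sls 1634102_at at 1.22. It was negative for Zasp52 at -1.26 (SE 0.14, limma adjusted p = 0.000753). These 6 passed without any 1 of the 12 arrays. Each difference also holds that between the 2 wild-type sets. After quantile normalization, wild type set 2 minus set 1 was 2.25 for Mlc2, 1.45 for bt and 1.13 for Mlc1. It was 0.83 for Mlp60A 1638818_at, 0.78 for sls 1634102_at and 0.22 for Zasp52. On that scale Slou and the arrays labelled Msh averaged 6.74 and 6.21 for Mlc2 and 6.84 and 6.72 for bt. Averages were 7.93 and 6.44 for Mlc1, 8.24 and 7.03 for Mlp60A 1638818_at, 5.82 and 5.41 for sls 1634102_at and 5.52 and 7.03 for Zasp52. The 2 bright sls probe sets had differences of -0.10 (SE 0.15) and -0.12 (SE 0.22), with limma adjusted p = 0.791 and 0.839.

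The 2 wild-type sets, which share genotype and stage by their labels, held these genes at different ranks. The Mlc2 probe set ranked 2979, 3020 and 2945 of 18769 in wild type set 2, against 6486, 6116 and 6267 in wild type set 1, where rank 1 is the highest value on an array. Mlc1 had median ranks of 2321 in wild type set 2 and 4154 in wild type set 1, and bt had 3546 and 5653. Mlp60A 1638818_at had median ranks of 1722 in set 2 and 2793 in set 1. The bright sls probe set 1628671_a_at went the other way, with ranks of 1575, 1534 and 1732 in set 2, against 755, 781 and 801 in set 1. Zasp52 had median ranks of 5384 and 5665, and Mlp84B of 6027 and 5965.

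After quantile normalization of 12 arrays, 7 of the 13 probe sets differed between the wild-type sets, 6 higher and 1 lower in set 2, where 8.32% and 8.91% of all did. Mlc2 was higher in set 2 by 2.25 (SE 0.10, limma adjusted p = 8.31e-06), bt by 1.45 (SE 0.12), Mlc1 by 1.13 (SE 0.11), Mlp60A 1638818_at by 0.83 (SE 0.09) and sls 1634102_at by 0.78 (SE 0.13). Prm 1628105_a_at was higher by 1.84 (SE 0.54, limma adjusted p = 0.0460), a call that was kept in 1 of the 6 fits without 1 array. sls 1628671_a_at was lower in set 2 by 0.91 (SE 0.11, limma adjusted p = 0.000715). For both Mlc2 and bt, the difference between the wild-type sets was thus numerically larger than the change of that gene in Slou or in the arrays labelled Msh. The labels name no other difference between the sets, and set, scaling and any other batch cannot be told apart. The actin 3' minus 5' value was 1.19 in set 2 and 0.84 in set 1, and markers of other cells also differed. Their part in this difference was not tested.

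**Figure D3:**
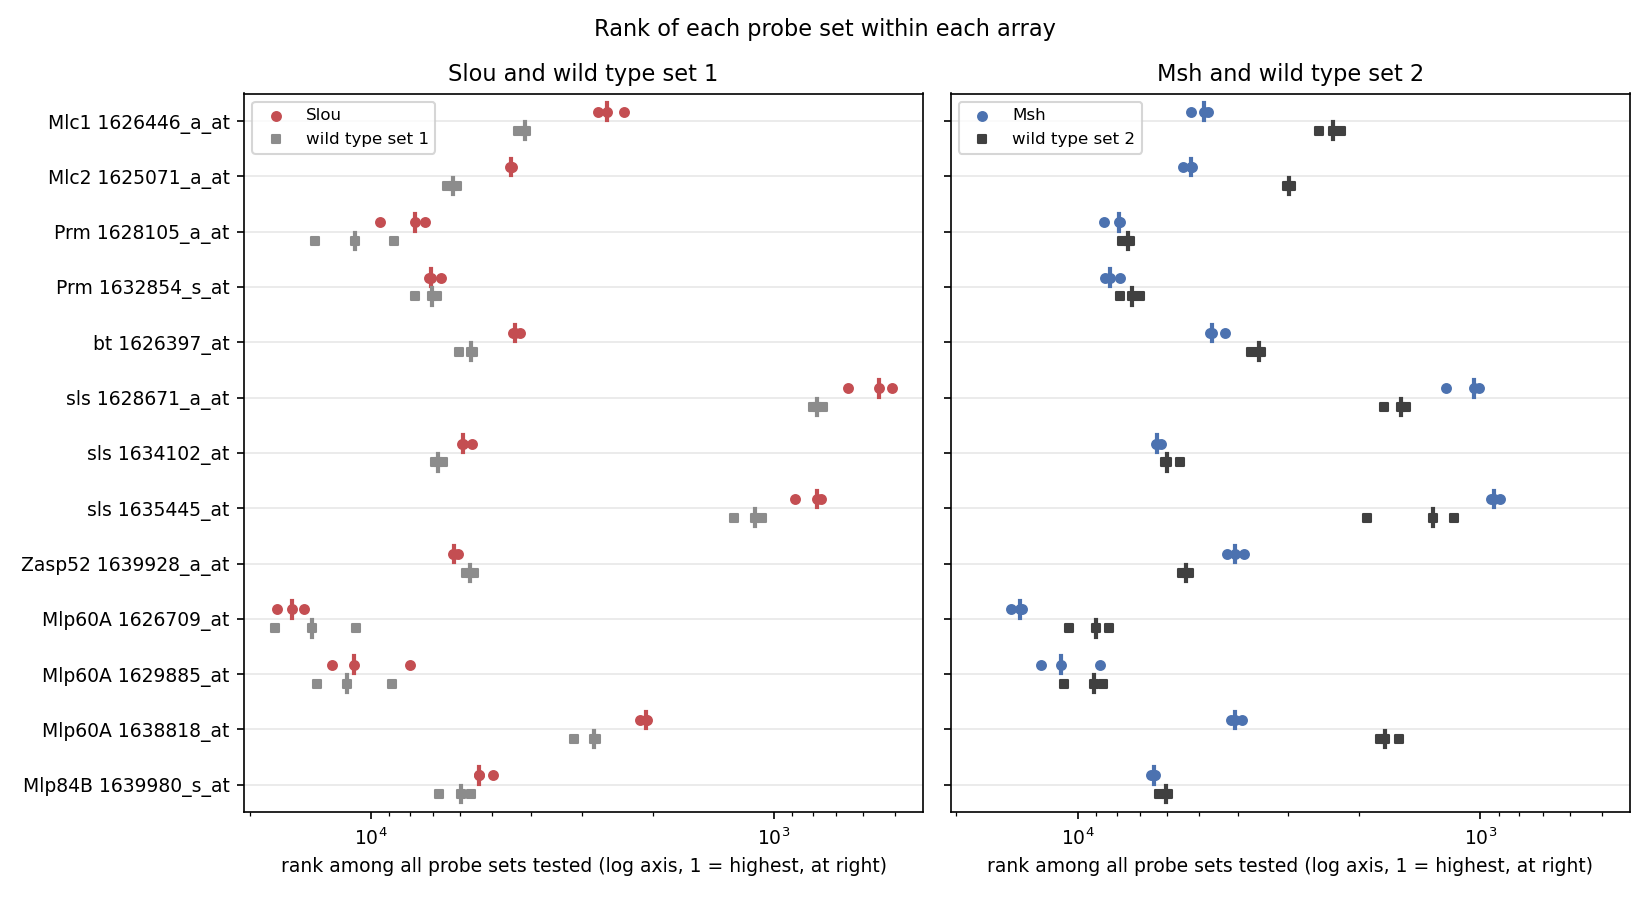
Rank of each of the 13 probe sets among 18769 on every array (x axis, logarithmic, rank 1 being the highest value and lying to the right); points are arrays and short vertical lines are group medians. Ranks can be read across the panels. Mlc2 had median ranks of 4505 in Slou and 5231 in the arrays labelled Msh, between 2979 in wild type set 2 and 6267 in wild type set 1.

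Set side by side on the quantile-normalized log2 scale, the order of the 4 groups differed from gene to gene. Neighbouring groups were tested in 1 fit of 12 arrays. The share of all probe sets that passed there was 8.81% for Slou against wild type set 1, 24.0% for Slou against the arrays labelled Msh and 19.9% for Slou against wild type set 2. It was 22.5% between the arrays labelled Msh and wild type set 1, 8.83% between them and wild type set 2, and 17.2% between the wild-type sets. Mlc2 averaged 6.74 ± 0.02 in Slou, 6.21 ± 0.11 in the arrays labelled Msh, 7.68 ± 0.02 in wild type set 2 and 5.43 ± 0.16 in wild type set 1 (SD, n = 3 each). Both gains of function lay between the wild-type sets, and every neighbouring pair differed (limma adjusted p at most 0.00357). bt averaged 6.84 ± 0.06 in Slou, 6.72 ± 0.14 in the arrays labelled Msh, 7.31 ± 0.06 in wild type set 2 and 5.86 ± 0.21 in wild type set 1 (SD, n = 3 each). It had the same order, and the 2 gains of function did not differ beyond their spread (limma adjusted p = 0.563).

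Mlc1 was lowest in the arrays labelled Msh. It averaged 7.93 ± 0.12 in Slou, 6.44 ± 0.17 in the arrays labelled Msh, 8.07 ± 0.10 in wild type set 2 and 6.94 ± 0.06 in wild type set 1 (SD, n = 3 each). Its 2 highest groups, Slou and wild type set 2, did not differ beyond their spread (limma adjusted p = 0.463). Mlp60A 1638818_at had the same order, at 8.24, 7.03, 8.55 and 7.72, and every neighbouring pair differed (limma adjusted p at most 0.0401). Here Slou passed against wild type set 1 (limma adjusted p = 0.00740), which it did not in the 6-array fit.

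Zasp52 was highest in the arrays labelled Msh and lowest in Slou. It averaged 5.52 ± 0.08 in Slou, 7.03 ± 0.12 in the arrays labelled Msh, 6.15 ± 0.08 in wild type set 2 and 5.93 ± 0.11 in wild type set 1 (SD, n = 3 each). The 2 wild-type sets between them did not differ beyond their spread (limma adjusted p = 0.177). Slou was lower than wild type set 1 in this fit (limma adjusted p = 0.0306), which again it was not in the 6-array fit. sls 1628671_a_at averaged 9.93 ± 0.16 in Slou, 9.13 ± 0.12 in the arrays labelled Msh, 8.62 ± 0.09 in wild type set 2 and 9.53 ± 0.04 in wild type set 1 (SD, n = 3 each). Its lowest group was wild type set 2 and its highest was Slou. Slou and wild type set 1 did not differ here beyond the threshold (limma adjusted p = 0.0546). The arrays labelled Msh were higher than wild type set 2 in this fit (limma adjusted p = 0.0190), which they were not in the 6-array fit. They were lower than wild type set 1 (limma adjusted p = 0.0226). For sls 1635445_at, sls 1634102_at, Mlp84B, both Prm probe sets and the 2 dim Mlp60A probe sets, no neighbouring pair in the order passed.

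The direction of some changes depended on which wild-type set served as the reference. Each comparison below shares its gain-of-function arrays with the one above, so they are not independent. Against wild type set 2, Slou had changes of -0.93 (SE 0.10, limma adjusted p = 0.000198) for Mlc2 and -0.47 (SE 0.12, limma adjusted p = 0.0220) for bt, opposite to the rises against wild type set 1. Mlc1 had a change of -0.14 (limma adjusted p = 0.463). sls 1628671_a_at and 1635445_at were higher in Slou than in wild type set 2 by 1.30 (SE 0.11) and 0.71 (SE 0.16), and Zasp52 was lower by 0.63 (SE 0.10, limma adjusted p = 0.00186). The bt call was kept in 2 of the 6 fits without 1 array. In this comparison 2 probe sets passed as higher and 5 as lower, where 10.0% and 9.92% of all did. The largest of the lower ones was Mlp60A 1626709_at, at -3.18 (SE 0.68, limma adjusted p = 0.0106), near background in Slou, and it passed in all 6 fits without 1 array. Another was Mlp60A 1638818_at, at -0.31 (limma adjusted p = 0.0401), which passed in 0 of the 6 fits without 1 array.

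Against wild type set 1, the arrays labelled Msh had Mlc2 higher by 0.78 (SE 0.10, limma adjusted p = 0.000529) and bt higher by 0.86 (SE 0.12, limma adjusted p = 0.000970), opposite to the falls against wild type set 2. Mlc1 was lower by 0.49 (SE 0.11, limma adjusted p = 0.0107) and Mlp60A 1638818_at by 0.69 (SE 0.09, limma adjusted p = 0.000691). Zasp52 was higher by 1.09 (SE 0.10, limma adjusted p = 0.000118). With the arrays labelled Msh, Mlc1, Mlp60A 1638818_at and Zasp52 thus had the same direction against either wild-type set, and Mlc2 and bt did not. sls 1628671_a_at was lower than in wild type set 1 by 0.41 (SE 0.11, limma adjusted p = 0.0226), whereas it had a change of 0.50 against wild type set 2. That call was kept in 2 of the 6 fits without 1 array. Here 3 probe sets passed as higher and 3 as lower, where 10.9% and 11.6% of all did.

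Other genes of the sarcomere were taken from lists, each gene being read by its brightest probe set on average. The shares of all probe sets given beside the counts include dim probe sets and those of no named gene. They are thus not matched to the lists. Of 6 other thick filament and M-line genes 5 were measured. In Slou, 0 of these 5 passed by limma, and 2 had an unadjusted p under 0.05, as 15.1% of all probe sets did (median 0.86, against -0.02 over 11982 genes). In the arrays labelled Msh, 1 fell and 0 rose (median -0.24, against 0.02 over all genes), and 2 had an unadjusted p under 0.05, as 22.8% of all probe sets did. The one that fell was unc-45, a myosin chaperone, by 0.60 (SE 0.07, limma adjusted p = 0.0215), and in Slou its change was 0.46 (limma adjusted p = 0.0955).

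Of 7 other Z-disc genes, all measured, 1 rose in Slou (median 0.34) and 1 fell in the arrays labelled Msh (median -0.03). Over all probe sets 1.24% rose in Slou and 3.95% fell in the arrays labelled Msh, and the medians over all genes were -0.02 and 0.02. The riser was cher, a filamin that crosslinks actin, by 0.87 (SE 0.10, limma adjusted p = 0.0297). The gene that fell was Msp300, a large nesprin, by 1.81 (SE 0.12, limma adjusted p = 0.00714). Actn, the alpha-actinin that Zasp52 binds, had changes of -0.03 in Slou and -0.01 in the arrays labelled Msh (limma adjusted p = 0.942 and 0.957). The capping protein subunits cpa and cpb, which cap actin filaments at the Z-disc, had changes between 0.01 and 0.29 in both comparisons, none of which passed.

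Of 16 thin filament genes 10 were measured, of which 2 rose in Slou (median 0.27) and 3 fell in the arrays labelled Msh (median -0.80), beside the same 1.24% and 3.95% of all probe sets and medians of -0.02 and 0.02 over all genes. up, a troponin T, rose by 1.28 (SE 0.14) in Slou and fell by 0.92 (SE 0.13) in the arrays labelled Msh. TpnC73F, a troponin C, rose by 1.21 (SE 0.10) and fell by 1.31 (SE 0.07), and Tm2, a tropomyosin, fell by 1.91 (SE 0.13) in the arrays labelled Msh. Act87E, a muscle actin, had changes of 0.29 and 0.04 that did not pass (limma adjusted p = 0.247 and 0.785). Between the wild-type sets TpnC73F was higher in set 2 by 1.59 (SE 0.07) and Tm2 by 0.90 (SE 0.16), while up differed by 0.12 (limma adjusted p = 0.574).

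**Figure D4:**
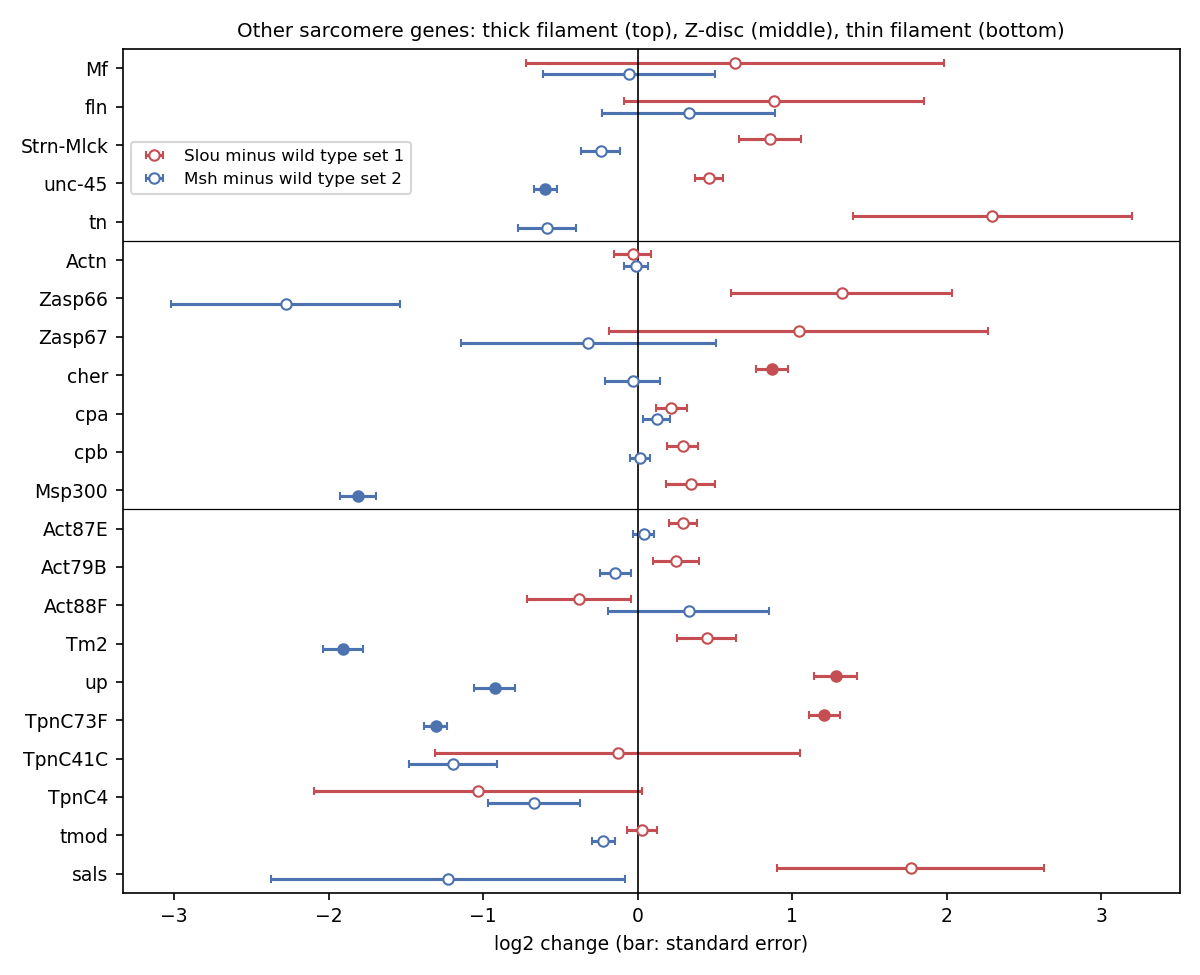
Log2 change (x axis, points) with its moderated standard error (bars) of 22 other sarcomere genes, for Slou against wild type set 1 and for the arrays labelled Msh against wild type set 2; filled points passed. cher, up and TpnC73F are the filled points right of 0, and unc-45, Msp300, Tm2, up and TpnC73F those left of 0.

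Among 8 regulators of muscle differentiation 5 were measured, without Mef2. In Slou 0 rose and 1 fell, where 1.24% and 1.08% of all probe sets did. In the arrays labelled Msh 1 rose and 1 fell, where 2.86% and 3.95% of all did. nau, related to vertebrate MyoD, fell by 1.63 (SE 0.14) in Slou and by 0.43 (SE 0.08) in the arrays labelled Msh. twi, the mesoderm determinant whose level falls as muscle differentiates, rose in the arrays labelled Msh by 0.91 (SE 0.15, limma adjusted p = 0.0392) and had a change of 0.49 in Slou (limma adjusted p = 0.117). Between the wild-type sets twi was lower in set 2 by 0.93 (SE 0.13, limma adjusted p = 0.00181) and nau by 0.55 (SE 0.11). lmd, a zinc finger factor of fusion-competent myoblasts, had changes of 0.10 and 0.17 that did not pass.

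Each gene was read here by its brightest probe set, sls by 1628671_a_at, Mlp60A by 1638818_at and Prm by 1632854_s_at. Its most similar pattern was sought among 5680 probe sets of other genes with a mean log2 value above 4 in every group. Pearson correlation over the 12 arrays was used, after the mean of each scaled part was subtracted. The arrays share groups and scaling, so these values are descriptions only. Mlc2 was most like Argk1, an arginine kinase (r = 0.994), Mlc1 like GstD1 (r = 0.989) and Mlp60A like CG7430 (r = 0.992). bt was most like Spn27A (r = 0.974), Zasp52 like woc (r = 0.975), sls like PAN3 (r = 0.956), Mlp84B like Scamp (r = 0.937) and Prm like CG13484 (r = 0.920). Other probe sets of a gene did not always share its pattern. sls 1628671_a_at had r = 0.25 with 1634102_at and 0.82 with 1635445_at, and the 2 Prm probe sets had r = 0.14. Mlp60A 1638818_at had r = 0.66 with 1626709_at and 0.26 with 1629885_at.

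Several markers of other cells and some array controls differed in the same comparisons. The difference between the 3' and 5' probe sets of the actin control was 0.55 ± 0.04 in Slou and 0.84 ± 0.12 in wild type set 1, and 1.57 ± 0.08 in the arrays labelled Msh and 1.19 ± 0.15 in wild type set 2 (SD, n = 3 each). For actin the groups did not overlap in either comparison. The GAPDH control had differences of 1.23 ± 0.25 in Slou and 0.84 ± 0.63 in wild type set 1, and of 0.74 ± 0.65 in the arrays labelled Msh and 1.21 ± 0.65 in wild type set 2 (SD, n = 3 each), overlapping in both comparisons. For the eIF-4a control they were 1.62 ± 0.03 in Slou and 1.65 ± 0.04 in wild type set 1, and 1.74 ± 0.07 in the arrays labelled Msh and 1.52 ± 0.10 in wild type set 2 (SD, n = 3 each). These overlapped in the Slou comparison and did not overlap in that of the arrays labelled Msh. The poly-A control probe sets averaged 6.04 ± 0.11 in Slou and 6.71 ± 0.03 in wild type set 1, and 9.11 ± 0.15 in the arrays labelled Msh and 10.75 ± 0.45 in wild type set 2 (SD, n = 3 each), with no overlap in either comparison.

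Of all probe sets 1.24% rose and 1.08% fell in Slou, and 2.86% rose and 3.95% fell in the arrays labelled Msh. The markers were read by their brightest probe sets, so these shares are not matched to them. Of 11 hemocyte markers 1 rose and 4 fell in Slou, and 0 rose and 5 fell in the arrays labelled Msh. The log2 of their summed level ran from 11.27 to 11.36 in Slou and from 11.56 to 11.60 in wild type set 1, and from 12.68 to 12.75 in the arrays labelled Msh and from 13.16 to 13.24 in wild type set 2. Of the 11, the number averaging below a log2 value of 2 was 1 in Slou, 2 in wild type set 1, 2 in the arrays labelled Msh and 0 in wild type set 2. Of 7 neuronal markers 2 fell in Slou, with sums of 9.09 to 9.27 in Slou and 9.96 to 10.06 in wild type set 1. Of these 7, 1 fell in the arrays labelled Msh. Of 6 epidermal markers 0 passed in Slou by limma, and 0 had an unadjusted p under 0.05, where 15.1% of all probe sets did. All 6 had negative changes there, and the sums were 7.88 to 8.01 in Slou and 8.13 to 8.21 in wild type set 1. Of these 6, 3 rose in the arrays labelled Msh, with sums of 11.27 to 11.32 there and 10.58 to 10.77 in wild type set 2. In Slou 2 of 5 visceral muscle, 4 of 6 heart and 1 of 3 fat body markers fell, and in the arrays labelled Msh 1 of each list fell. Hand stands in both the visceral muscle and the heart list: it is 1 of the fallers of each in Slou and the only one of each in the arrays labelled Msh. Between the wild-type sets, 4 of 7 neuronal markers were higher in set 2, 3 epidermal markers were higher and 1 lower, 1 hemocyte marker was higher and 3 were lower, and 3 of 5 visceral muscle markers were lower. Of the heart markers 1 was higher and 2 were lower in set 2, and 1 fat body marker was lower, srp, which is also in the hemocyte list. Of all probe sets 8.32% were higher and 8.91% lower in set 2. The part of these shifts in the changes of the sarcomere genes was not tested. In sorted bulk RNA, a lower share of differentiating cells and less transcript per cell cannot be told apart.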

How the data were processed

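Total RNA of sorted embryonic mesodermal cells was measured on 12 single-colour oligonucleotide arrays. The authors deposited 1 log2 value per probe set and array. Per the submitters' processing notes the R package affy was used; its version, the background correction, scaling and summary method are not given in the sources used here, and that the scale is log2 was inferred from its range.

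Of the probe sets, 183 controls were left out and 18769 tested, with no filter on low values. The platform annotation assigned 13647 of them to 1 gene, 402 to several and 4720 to none. Each gain of function was fitted with the wild-type set sharing its scaling (set 1 for Slou, set 2 for Msh), 6 arrays each, in limma 3.58.1 (R 4.3.3), with Benjamini-Hochberg adjustment over all probe sets at 0.05. The other comparisons used 12 arrays with 4 group means, across the scaled parts after quantile normalization. Tests of neighbouring groups were added after the data were seen. The fits were tested on simulated data with independent noise on each array. Such data cannot show how the calls behave where arrays share a batch. The labels do not say that a replicate letter marks a shared batch, so no block was used. Over all probe sets, deviations of arrays with the same letter correlated at -0.0143 to 0.0304. Dim probe sets have the widest spread there, so these values could not exclude a pairing.

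The named genes were all probe sets of the member genes, slou and Dr, for each other list up to 3 passing genes with the smallest p, and for each member the most similar other gene; Actn, cpa, cpb, Act87E, lmd and Mlc-c were picked with their values already known. The members and lists were chosen with earlier results of these data known. No sequences or coordinates are given, since none of the array's build was used here. The number of arrays limits the precision.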

Additional observations from a re-analysis of the deposited data

Results flagged for a closer look

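For 6 probe sets the change in Slou and the change in the arrays labelled Msh, each against the wild-type set that shares its scaling, differed by a direct test of the difference (limma, 12 arrays, adjusted p of 0.00403 or less). The differences, Slou effect minus Msh effect on the log2 scale, were 2.62 (SE 0.15) for Mlc1, 2.78 (SE 0.13) for Mlc2, 1.58 (SE 0.17) for bt, 1.22 (SE 0.18) for sls 1634102_at, -1.26 (SE 0.14) for Zasp52 and 2.04 (SE 0.13) for Mlp60A 1638818_at. That pairing was inferred from the scaling, since the labels do not give it. Each difference also holds the difference between the 2 wild-type sets.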

How the results depend on the processing

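Over 410 refits of the 35 changes and differences that passed, 0 changed sign. Many of these refits could not change it. The intensity trend, the replicate letter as a block, the filter and the spread of 12 arrays alter the standard error and not the change. For the calls in Slou and in the arrays labelled Msh the groups did not overlap, so leaving out 1 array could not turn the sign either. The count of the 13 probe sets passing in Slou, 3 as reported, was 8 with an intensity trend, 8 after a filter on dim probe sets (9 left) and 6 with the spread of all 12 arrays. It was 0 without any 1 array and 0 with the replicate letter as a block (replicate block). The count in the arrays labelled Msh, 6 as reported, was 8 with the trend and 9 after the filter (11 left). It was 0 with the replicate block and 0 to 4 without 1 array. Over all 18769 probe sets the calls in Slou numbered 434 as reported, 2380 with the trend and 1591 with the spread of 12 arrays. After the filter 2135 of the 6737 left passed. In the arrays labelled Msh the calls numbered 1278 as reported and 3621 with the trend, and 3586 of the 8792 left after the filter. With the block 0 of all 18769 probe sets passed in either comparison, and whether the letters mark a shared batch is not known. The other 4 counts stayed within 1.5 times of their reported value in every alternative run.

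Some changes that had not passed turned sign when 1 array was left out, and are given as ranges over those fits. In Slou against wild type set 1 they ran from -0.0070 to 0.33 for Prm 1632854_s_at and from -0.12 to 0.89 for Mlp60A 1629885_at. The difference of effects ran from -0.24 to 0.071 for sls 1635445_at. Between the wild-type sets the range was -0.38 to 0.025 for Prm 1632854_s_at and -0.23 to 0.25 for Mlp84B. In Slou against wild type set 2 it was -0.025 to 0.18 for sls 1634102_at and -0.92 to 0.080 for Mlp60A 1629885_at. In the arrays labelled Msh against wild type set 1 it was -0.85 to 0.74 for Mlp60A 1626709_at and -0.23 to 0.87 for Mlp60A 1629885_at. With ranks within each array turned into normal scores, which are not log2 units, Mlp60A 1626709_at had a change of 0.086 there. The cause was not tested.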
